A study of Mus musculus with 4 samples.

Results

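The 9 genes described here are used to recognise astrocytes and are grouped under the name homeostatic astrocyte genes. The members are Aqp4, Gja1, Gjb6, Aldh1l1, Aldoc, S100b, Atp1b2, Sox9 and Mlc1. They were chosen by name, and all 9 were found among the 55421 genes counted in each library. PFC tissue of newborn (P0) wild-type C57BL/6 mice was dissociated and cultured for 10 days in neurobasal medium with B27 and GlutaMAX, either with FGF2 added at 5 ng/mL or with no FGF2, and 2 RNA-seq libraries were made from each kind of culture. The comparison with and without FGF2 was made in the study to ask whether effects seen in human fetal cultures were shared by another species. The libraries of a group carry the numbers B1 and B2 in their titles (replicates 1 and 2 below) and are not stated to come from separate cultures, so the p-values may measure only technical spread.

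Astrocytes are the glial cells that keep the fluid around neurons constant. They take up potassium, glutamate and water, pass small molecules to each other through gap junctions, and feed and cover synapses and blood vessels with fine endfeet. FGF2 is a growth factor that binds receptors on neural progenitors and astrocytes and is often added to neural cultures. In injury or inflammation astrocytes become reactive, a state marked by intermediate filaments such as Gfap and by secreted response proteins.

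The counts on genes ranged from 9166432 to 10799886 per library. Levels are given as CPM, the count of a gene as a share of all counts of its library, with that total scaled by the TMM factors of edgeR. A level is thus relative to the other genes of the library. A count of 0 allows up to 3 counts, or 0.278 to 0.327 CPM depending on the library. This limit covers counting error only. The cultures held RNA of cortical and of glial cells, since all 8 markers of cortical identity and all 30 further astrocyte genes that were looked up passed the expression filter. RNA was taken from whole cultures, so more or fewer cells of a type and more or less RNA per cell cannot be told apart.

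Most members rose with FGF2, by moderate amounts. In the edgeR quasi-likelihood test over 17144 genes, 7 of the 9 members were higher with FGF2 at an adjusted p-value threshold of 0.05 and 0 were lower, where 20.7% of all tested genes were called higher and 19.9% lower. S100b did not pass the threshold, and Gjb6 had too few counts to be tested. Over the 8 tested members the median log2 fold change (with FGF2 over no FGF2) was 0.41, beside a median of -0.00082 over all tested genes. For the same 7 members neither library without FGF2 reached the lower of the FGF2 libraries, and 33.6% of all tested genes were separated in this direction.

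The summed level of the members was 3942 and 3943 CPM in the libraries with FGF2 and 2736 and 2740 CPM in those without, a 1.44-fold difference. Aqp4 alone held 35.3% of that sum without FGF2 and 42.0% with FGF2, and it made up 57.2% of the rise. Without Aqp4 the sum differed 1.29-fold.

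**Figure D1:**
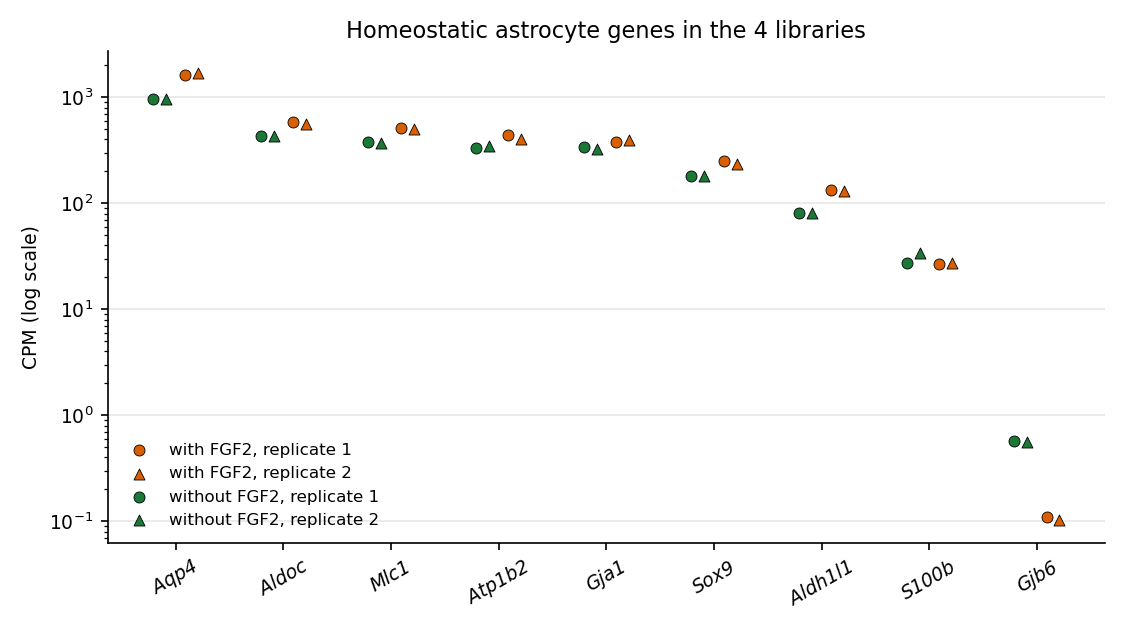
CPM of the 9 homeostatic astrocyte genes on a log axis in each library, with FGF2 in orange and without FGF2 in green, circles for replicate 1 and triangles for replicate 2. The orange points lie above the green ones for 7 genes, the S100b points with FGF2 lie just below those without, and Gjb6 lies far below the other genes in every library.

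Promoters were looked at for members that rose and for those that did not. RefSeq entries of GRCm38.p6, the build also called mm10, were matched for 6 members and give 250 bases before and 50 after a transcription start. The entries shown are those of Gja1 at chr10:56377050-56377349 (plus strand) and of Aldoc, the first of 2, at chr11:78322823-78323122 (plus strand), which rose, and of Gjb6 at chr14:57133562-57133861 (minus strand) and of S100b at chr10:76253586-76253885 (plus strand), which did not. Each is printed 5′ to 3′ on the strand of its gene, with capitals for matches to any of 6 motifs on either strand.
Gja1: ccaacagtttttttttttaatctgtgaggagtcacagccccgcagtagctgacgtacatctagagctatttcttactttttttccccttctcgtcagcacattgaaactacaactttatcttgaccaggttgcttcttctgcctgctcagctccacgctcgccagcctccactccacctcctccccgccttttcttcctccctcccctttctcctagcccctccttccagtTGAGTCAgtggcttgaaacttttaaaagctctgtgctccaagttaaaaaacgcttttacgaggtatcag
Aldoc: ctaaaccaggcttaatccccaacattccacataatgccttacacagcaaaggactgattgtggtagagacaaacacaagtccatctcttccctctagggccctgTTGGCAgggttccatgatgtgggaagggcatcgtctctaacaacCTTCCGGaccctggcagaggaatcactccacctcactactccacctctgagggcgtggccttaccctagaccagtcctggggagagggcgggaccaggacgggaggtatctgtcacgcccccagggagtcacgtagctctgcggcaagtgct
Gjb6: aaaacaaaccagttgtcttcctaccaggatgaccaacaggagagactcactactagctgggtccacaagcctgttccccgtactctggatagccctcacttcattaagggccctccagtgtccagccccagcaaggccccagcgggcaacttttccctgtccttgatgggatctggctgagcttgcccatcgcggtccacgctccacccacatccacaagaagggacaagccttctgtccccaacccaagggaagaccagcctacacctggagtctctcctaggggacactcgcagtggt
S100b: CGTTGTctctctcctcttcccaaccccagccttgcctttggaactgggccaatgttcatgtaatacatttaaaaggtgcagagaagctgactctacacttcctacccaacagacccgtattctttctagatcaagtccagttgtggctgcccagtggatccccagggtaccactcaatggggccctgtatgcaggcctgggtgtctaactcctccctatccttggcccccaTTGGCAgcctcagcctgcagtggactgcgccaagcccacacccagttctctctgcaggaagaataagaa
The search covered 6 motifs, none of which contains another, and their share is given among 32544 promoters of the same length. The AP-1 motif, TGANTCA, was found in 7.79% of them. A SOX motif, ACAANG, was common and stood in 41.1%. For the NFI motif, searched as TTGGCA, the share was 14.1%. STAT motifs were searched as TTCNNNGAA and were present in 8.33%. The letters CCGGAAG served as the ETS motif and occurred in 8.91%. A TATA box, TATAAA, was present in 13.6%. Gja1 held 1 AP-1 match close to the start, Aldoc 1 NFI and 1 ETS match, S100b 1 SOX and 1 NFI match, and Gjb6 held 0 matches. The second entry of Aldoc held 2 STAT matches. Mlc1 and Aldh1l1 rose and also held 0 matches, so none of the motifs was shared by the members that rose and had an entry. A match is a run of letters and does not show that a factor binds there.

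Aqp4 encodes the main water channel of astrocyte endfeet. It had 1620 and 1691 CPM with FGF2 (1656 ± 50.2, SD, n = 2) and 964 and 970 CPM without FGF2 (967 ± 4.56, SD, n = 2). The libraries did not overlap, and Aqp4 was both the most abundant member and the one with the largest fold change, 1.71-fold. On the log2 scale the rise was 0.78 with a standard error of 0.032 (adjusted p = 2.1e-127). Among the other 11 water channels only Aqp9 and Aqp11 had enough counts to be tested. Aqp11, a channel of intracellular membranes, had a log2 fold change of -0.47 (adjusted p = 0.059, or 0.049 with total count scaling), and 3 of the 12 genes had no count in any library.

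At the endfoot, Aqp4 is held by the dystrophin-associated complex, which links the membrane to the basal lamina. Of the 14 genes of this complex, 13 were tested, and 7 rose and 3 fell with FGF2, with a median log2 fold change of 0.25. Utrn, a dystrophin relative, rose by 0.50 and Dag1, which encodes dystroglycan, rose by 0.36 on the log2 scale (adjusted p = 8.4e-20 and 1.9e-19).

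Mlc1 encodes a membrane protein of endfeet and astrocyte junctions that takes part in cell volume regulation, and its loss causes a leukodystrophy in humans. The mm10 coordinates of the gene are chromosome 15, 88955884 to 88979007. It had 517 and 501 CPM with FGF2 and 376 and 368 CPM without. The rise was 1.37-fold, or 0.45 ± 0.039 (SE) on the log2 scale (adjusted p = 9.9e-30). Hepacam encodes GlialCAM, the adhesion protein that brings Mlc1 to cell junctions. Its level of 193 and 175 CPM with FGF2 overlapped the 174 and 185 CPM without FGF2, and the difference was 0.03 ± 0.051 (SE) on the log2 scale (adjusted p = 0.63). The count ratio of Mlc1 to Hepacam was 2.68 and 2.86 with FGF2 and 2.16 and 1.99 without. Of 9 tested genes in a list of 10 for Mlc1, itself included, and the proteins it works with, 4 rose and 4 fell, but only 1 fell with DESeq2, without FGF2 replicate 1 or without no FGF2 replicate 1. Gprc5b, a receptor of the same protein network, rose by 0.52 (adjusted p = 1.4e-27).

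Gja1 and Gjb6 encode connexin 43 and connexin 30, the connexins of astrocyte gap junctions. Gja1, on chromosome 10 from 56377330 to 56402513, had 378 and 395 CPM with FGF2 and 343 and 325 CPM without. This was the smallest change among the 7 members that rose, 1.16-fold (log2 fold change 0.21, standard error 0.041, adjusted p = 1.6e-06). Gjb6, on chromosome 14 from 57123303 to 57133611, had 1 count in each library with FGF2 and 6 counts in each library without FGF2. It was thus close to absent in all cultures. Connexin 30 is a usual marker of mature astrocytes. Summed over libraries, 2 counts against 12 give a ratio of 0.186 with an exact 95% interval of 0.0202 to 0.834, which covers counting error only. In a fit without an expression filter the log2 fold change of Gjb6 was -2.28 (adjusted p = 0.22), so a difference was not established. With 0.5 added to each count, the ratio of Gja1 to Gjb6 was 2286 and 2592 with FGF2 and 554 and 542 without.

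Of the 20 connexin genes, 7 were tested, and only Gja1 and Gjc3 passed the threshold. Gjc3, a connexin of oligodendrocytes, rose by 2.22 on the log2 scale (adjusted p = 2.4e-14), from 1.81 and 2.31 CPM to 10.0 and 9.25 CPM. Gjc1 at 9.66 to 14.4 CPM and Gjd2, the neuronal connexin 36, at 6.00 to 9.98 CPM did not pass the threshold. Gja1 therefore held most of the connexin level, 378 of 414 summed CPM in replicate 1 with FGF2 and 343 of 374 in replicate 1 without.

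Atp1b2 encodes the β subunit of the sodium-potassium ATPase that astrocytes use to clear potassium. Atp1b2 lies on chromosome 11 from 69599736 to 69605942. Its level was 441 and 402 CPM with FGF2 and 335 and 350 CPM without, 1.23-fold higher (log2 fold change 0.30, standard error 0.040, adjusted p = 1.0e-12). Of the 15 genes of the pump and its regulators, Atp1b2 included, 11 were tested, and 3 rose and 5 fell. Atp1b1, the β subunit found mainly in neurons, fell by 0.53 (adjusted p = 2.5e-45), from 684 and 737 CPM to 462 and 522 CPM. The count ratio of Atp1b2 to Atp1b1 was 0.954 and 0.770 with FGF2 and 0.489 and 0.475 without. Atp1b3 was lower in level, at 46.1 to 55.2 CPM, and did not pass the threshold (-0.14, adjusted p = 0.20). The FXYD proteins are small regulators of the pump, and of their 5 tested genes 1 rose and 3 fell, the latter by 0.56 to 1.37. Fxyd1, found in astrocytes, rose by 1.01 and Fxyd7, found in neurons, fell by 1.10 (adjusted p = 3.7e-18 and 9.6e-09).

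Aldoc encodes aldolase C, the glycolytic aldolase of astrocytes. Located on chromosome 11 from 78322968 to 78327781, it had 579 and 561 CPM with FGF2 and 431 and 430 CPM without (1.32-fold, log2 fold change 0.40, standard error 0.038, adjusted p = 2.0e-25). Aldoa, the aldolase of most cell types, fell by 0.15 (adjusted p = 0.00038), from 430 and 435 CPM to 387 and 390 CPM. By count the aldolases were close to equal without FGF2, with a ratio of Aldoc to Aldoa of 1.00 and 0.989, and the ratio was 1.497 and 1.437 with FGF2. GENCODE lists Aldoa under 2 identifiers, and the one with the higher count was used.

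Aldh1l1 encodes the cytosolic enzyme that oxidises formyl-tetrahydrofolate and is widely used to label astrocytes. It lies on chromosome 6 from 90486427 to 90600203 and had 132 and 130 CPM with FGF2 and 80.2 and 80.6 CPM without. This 1.63-fold rise was the second largest among the members (log2 fold change 0.70, standard error 0.065, adjusted p = 9.7e-26). Its mitochondrial relative Aldh1l2 rose more, by 1.12 (adjusted p = 8.2e-43), and the ratio of Aldh1l1 to Aldh1l2 counts was 1.37 and 1.44 with FGF2 and 1.92 and 1.82 without. These were the only genes to rise among the 16 tested of 17 folate enzymes, while 5 fell. The count of 5 was 1 without FGF2 replicate 1, 2 without either library of the cultures with no FGF2, 1 with DESeq2 and 3 without an expression filter. Mthfd1, the cytosolic enzyme that forms and uses the same formyl-folate, fell by 0.66 (adjusted p = 6.1e-15) and stayed past the threshold in each of these fits. An antisense gene, Gm15756, covers 499 bases of the Aldh1l1 exons and had no count in any library. Since the strand setting of the counting is not known, its expression cannot be judged from this.

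S100b encodes a calcium-binding protein of astrocytes that oligodendrocyte lineage cells also express. On chromosome 10 from 76253853 to 76261159, it had 27.0 and 27.1 CPM with FGF2 and 27.1 and 33.9 CPM without, which makes it the one tested member that did not rise. Both libraries with FGF2 were below both without, but replicate 1 without FGF2 was almost level with them. The difference was -0.18 ± 0.12 (SE) on the log2 scale (adjusted p = 0.22). It rested on replicate 2 of the cultures with no FGF2, since the value was -0.01 without that library and -0.33 without replicate 1 of the same group (adjusted p = 0.98 and 0.065). Of 11 tested genes in a list of 17 S100 genes, 7 rose and 1 fell, with a median log2 fold change of 0.58. The gene that fell, S100pbp, encodes a binding partner of S100 proteins. Without FGF2 replicate 1 the median was 0.22 and 5 rose. With DESeq2 4 rose and 0 fell, and 0 fell without no FGF2 replicate 2. S100a11 and S100a16, both widely expressed, rose by 0.87 and 0.58 (adjusted p = 3.8e-38 and 2.9e-12). S100a1, a close relative of S100b, had a log2 fold change of 0.23 (adjusted p = 0.0088). This call was lost without FGF2 replicate 1 (0.18, adjusted p = 0.094), without no FGF2 replicate 1 (0.13, adjusted p = 0.35) and with DESeq2 (adjusted p = 0.17). The ratio of S100b to S100a1 counts was 0.339 and 0.360 with FGF2 and 0.443 and 0.480 without.

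Sox9 encodes a transcription factor that starts gliogenesis and that astrocytes keep in the nucleus. The gene is on chromosome 11 from 112782224 to 112787760. Its level was 248 and 235 CPM with FGF2 and 180 and 181 CPM without, a 1.34-fold rise (log2 fold change 0.42, standard error 0.048, adjusted p = 6.3e-17). The other SoxE factors, Sox8 and Sox10, which are found in the oligodendrocyte lineage, rose much more, by 1.56 and 2.41 (adjusted p = 4.5e-70 and 3.2e-185). Counts of Sox9 per count of Sox10 were therefore 1.83 and 1.78 with FGF2 and 7.43 and 6.89 without. In the list of 17 glial transcription factors, Sox9 included, 8 rose and 1 fell, with a median of 0.16, and 2 fell without FGF2 replicate 2 or without no FGF2 replicate 2. Nfia, which acts with Sox9 in astrocyte formation, rose by 0.69 (adjusted p = 8.7e-77) and Zbtb20 by 0.58 (adjusted p = 4.3e-76), while Nfib was at -0.05 (adjusted p = 0.27) and Nfix fell by 0.22 (adjusted p = 4.5e-09).

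**Figure D2:**
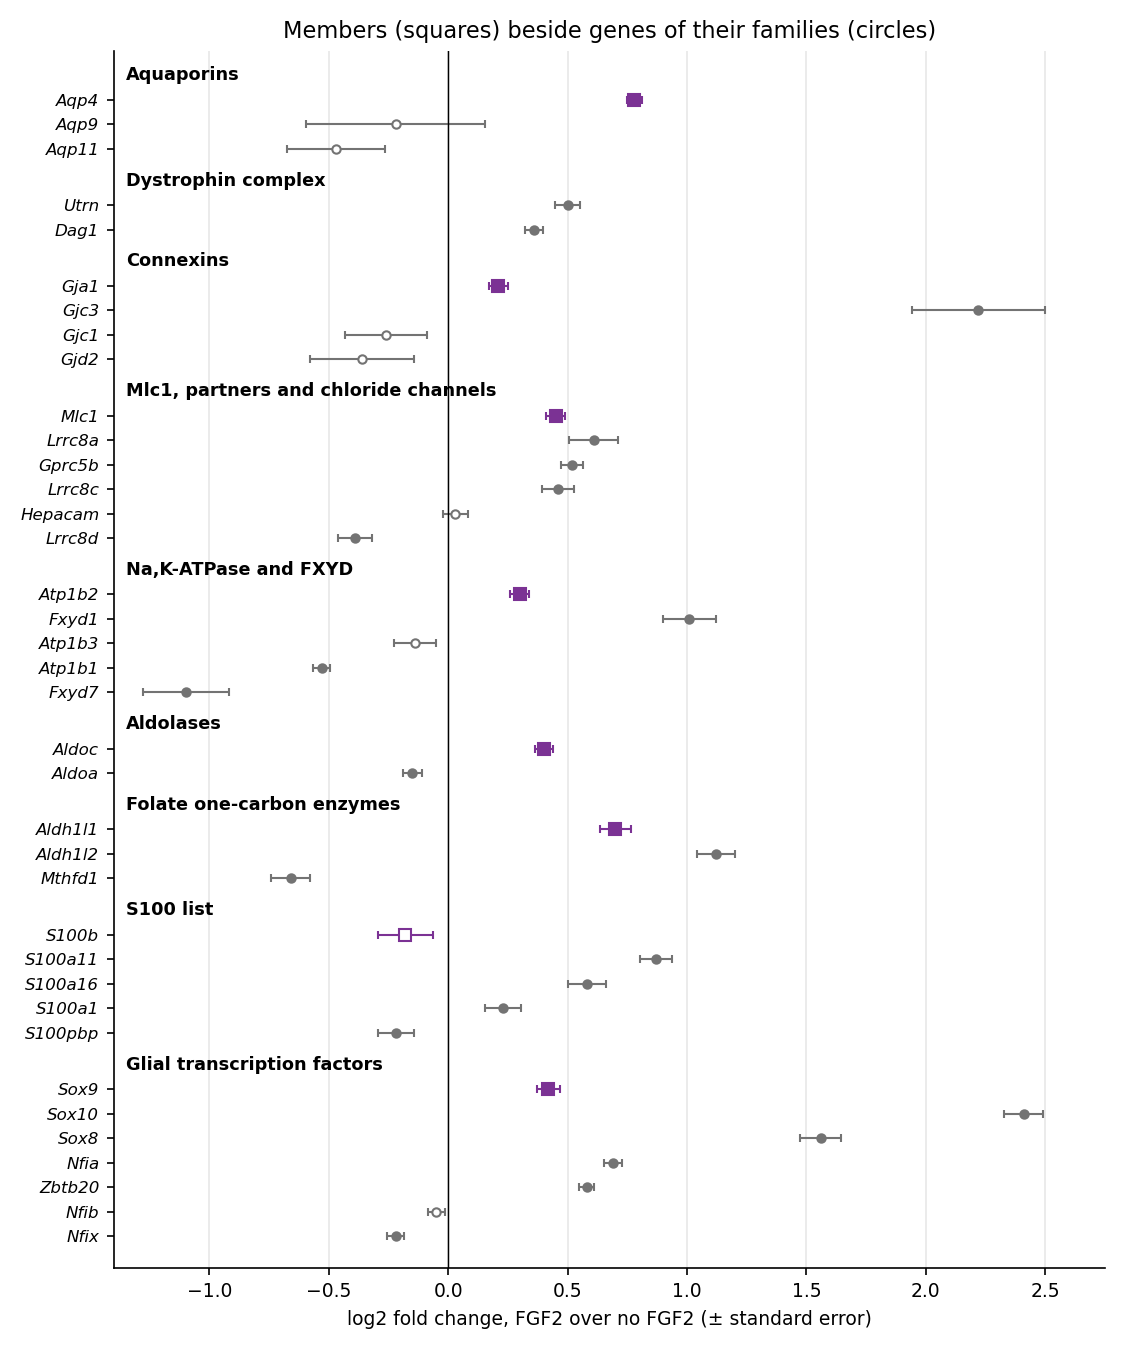
Log2 fold change with FGF2 over no FGF2 (bars, standard error) of the members (purple squares) and of related genes named in the text, other than S100a8 and S100a9 (grey circles), with filled symbols for an adjusted p-value below 0.05. Some members rose where relatives such as Atp1b1 and Aldoa fell, while Aldh1l2 and Gjc3 rose more than Aldh1l1 and Gja1. Sox9 lies far to the left of Sox8 and Sox10.

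The change in balance between a member and its partner was measured in each library as the log2 ratio of their counts, which does not depend on how libraries are scaled. For each of the 12 pairs described here the libraries with FGF2 did not overlap those without, and each exact two-sided permutation test gave p = 0.3333, the smallest that 2 libraries against 2 allow (adjusted p = 0.3333 over the 14 pairs compared). The permutation test can thus not pass a threshold of 0.05 in this design. How often other gene pairs separate in this way was not measured. Among single tested genes, 33.6% had both libraries with FGF2 above both without. That share leaves out genes separated in the other direction, while the pairs were counted in either direction. The difference of the mean log2 ratio was 0.83 for Atp1b2 to Atp1b1, 0.56 for Aldoc to Aldoa, 0.42 for Mlc1 to Hepacam and -1.99 for Sox9 to Sox10. Members also changed by unequal amounts. Aqp4 gained 0.32 on Mlc1 (ratio 3.14 and 3.37 with FGF2, 2.56 and 2.64 without) and Aldh1l1 gained 0.30 on Aldoc (0.228 and 0.232 with FGF2, 0.187 and 0.188 without).

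**Figure D3:**
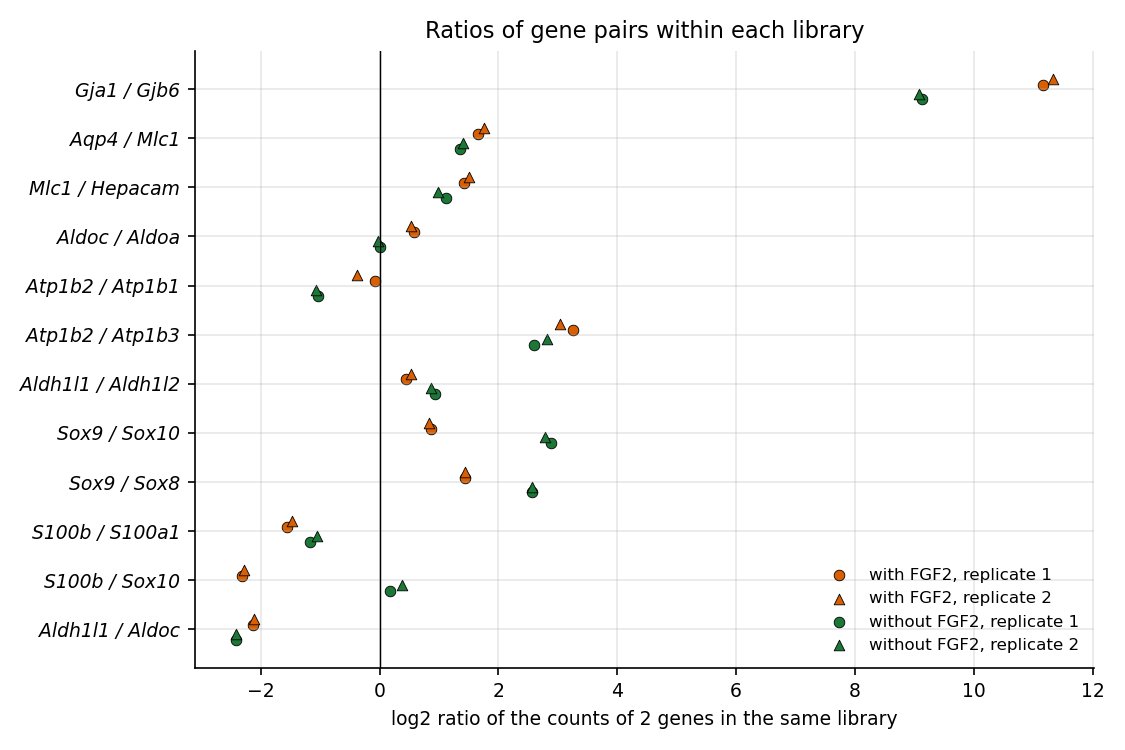
Log2 ratio of the counts of 2 genes in the same library for 12 gene pairs, with FGF2 in orange and without FGF2 in green. Orange and green points are separated for every pair, with the widest gaps for S100b to Sox10 (-2.57), Gja1 to Gjb6 (2.15, on 1 to 6 counts of Gjb6) and Sox9 to Sox10 (-1.99). The share of other gene pairs separated in this way was not measured.

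Levels of different genes were compared per kilobase of exon. Aqp4 ranked first, with 266 ± 8.06 CPM per kilobase with FGF2 and 155 ± 0.732 without (SD, n = 2). Mlc1 followed with 182 ± 3.91 and 133 ± 2.15, and Aldoc with 175 ± 3.92 and 132 ± 0.0726. Mlc1 and Aldoc overlapped in the libraries without FGF2, while all other neighbours in the order were apart in both groups. Next came Atp1b2 with 103 ± 6.75 and 83.8 ± 2.64, Sox9 with 58.4 ± 2.15 and 43.6 ± 0.165, and Gja1 with 37.7 ± 1.21 and 32.6 ± 1.21. The low end held Aldh1l1 with 29.0 ± 0.312 and 17.8 ± 0.0629, S100b with 18.2 ± 0.0214 and 20.6 ± 3.23, and Gjb6 with 0.0396 ± 0.00226 and 0.2104 ± 0.00446. Aldh1l1 was above S100b with FGF2 and below it without FGF2. By the longest transcript these genes overlapped without FGF2, with Aldh1l1 at 19.2 and 19.3 and S100b at 18.3 and 22.8 CPM per kilobase. The exons of Gja1 add up to 10257 bases but its longest transcript has 3889, and with that length Gja1 was at 99.4 and 85.9 CPM per kilobase and passed Sox9, while Aldoc passed Mlc1.

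**Figure D4:**
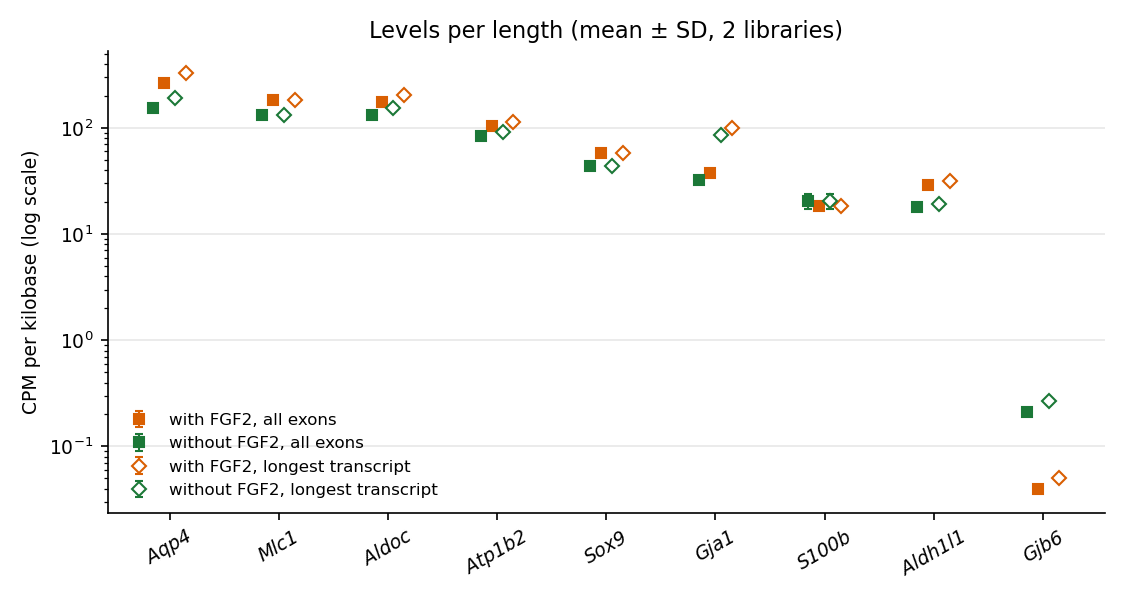
CPM per kilobase of the members on a log axis (mean, bars SD, 2 libraries), for the length of all exons (filled squares) and of the longest transcript (open diamonds), with FGF2 in orange and without FGF2 in green. Aqp4 is highest and Gjb6 lowest by either length, and Gja1 moves most between the lengths.

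The members were set beside 30 other genes of astrocytes, which went both ways. Of these, 14 rose and 10 fell, with a median log2 fold change of 0.15, and with DESeq2 9 rose and 8 fell. Without FGF2 replicate 1 the median was 0.07, with 12 higher and 9 lower. Slc1a3 and Slc1a2, the glutamate transporters GLAST and GLT-1, rose by 0.48 and 0.25 (adjusted p = 7.0e-57 and 3.7e-14). Kcnj10, the potassium channel Kir4.1 that lies with Aqp4 at endfeet, was at 286 and 271 CPM with FGF2 and 281 and 275 CPM without (log2 fold change 0.00, standard error 0.044, adjusted p = 0.96). The lowest values were those of Fam107a, which fell by 0.92, and Pla2g7, which fell by 0.67, and the GABA transporter Slc6a11 fell by 0.60 (adjusted p = 8.9e-34, 5.5e-45 and 3.0e-28). Glul, which encodes glutamine synthetase, fell by 0.17 (adjusted p = 1.4e-06). The rise of the 7 members was thus not shared by every astrocyte gene, and whether the lists differ was not tested.

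Other cell types and states moved in the same libraries. Of 13 pan-reactive astrocyte genes, 12 were tested and all 12 rose, with a median of 2.46 and a summed level of 10740 and 10410 CPM with FGF2 against 3899 and 3919 without. Gfap rose by 1.06 and Vim by 1.23. These held most of that sum, with 5945 and 5641 CPM for Gfap and 1580 and 1570 CPM for Vim with FGF2. Of 12 neuronal markers 10 fell, with a median of -0.46 and a summed level of 3895 and 4047 CPM with FGF2 against 5698 and 5680 without. All 9 tested of 10 oligodendrocyte lineage markers rose, with a median of 2.05 and summed levels of 1864 and 1873 against 560 and 569 CPM. Among 10 proliferation markers 9 fell, with a median of -0.60 and summed levels of 232 and 236 against 325 and 323 CPM. Radial glia markers overlap with astrocytes in Vim, Hopx and Fabp7, among others. The 10 listed had 4 higher and 4 lower, with a median of -0.02. Their summed levels were 3807 and 3828 against 2633 and 2678 CPM, most of it from Vim and Ptprz1. Vim had 1580 and 1570 CPM with FGF2 and 664 and 683 CPM without. Ptprz1 had 1574 and 1596 CPM with FGF2 and 1158 and 1165 CPM without. Nes fell by 0.42. Ependymal cells also express Aqp4, S100b and Sox9, and the 9 ependymal and choroid plexus markers had summed levels of 216 and 204 against 225 and 215 CPM, most of it from 1 marker at 136 to 157 CPM that did not pass the threshold. Of the 9, 3 fell and 1 rose, with a median of -0.26. With DESeq2, without FGF2 replicate 1 or without no FGF2 replicate 1, 2 fell and 0 rose, and 2 rose without FGF2 replicate 2. Microglia and endothelial markers were low, with summed levels of at most 43.1 and 15.8 CPM. Of 6 tested microglia markers 4 rose, or 1 with DESeq2, and some of these calls were lost with a library left out. Their median log2 fold change was 0.90, and 0.64 to 1.10 with a library left out. Of 4 tested endothelial markers 2 rose and 1 fell. With DESeq2, limma-voom, the replicate block or no expression filter, 0 endothelial markers fell. Cldn5, a defining endothelial gene, had no count in any library. Fibroblast and mural markers summed to 116 to 119 CPM with FGF2 and 89.1 to 89.4 CPM without, but the 9 tested markers went both ways. Of these, 3 rose and 2 fell, and the values ran from -2.18 for a collagen gene of fibroblasts to 1.89 for a mural gene. A gene among the 3, at 49.0 and 49.9 CPM with FGF2, is also in the oligodendrocyte list. The part of these changes in the rise of the members was not tested.

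**Figure D5:**
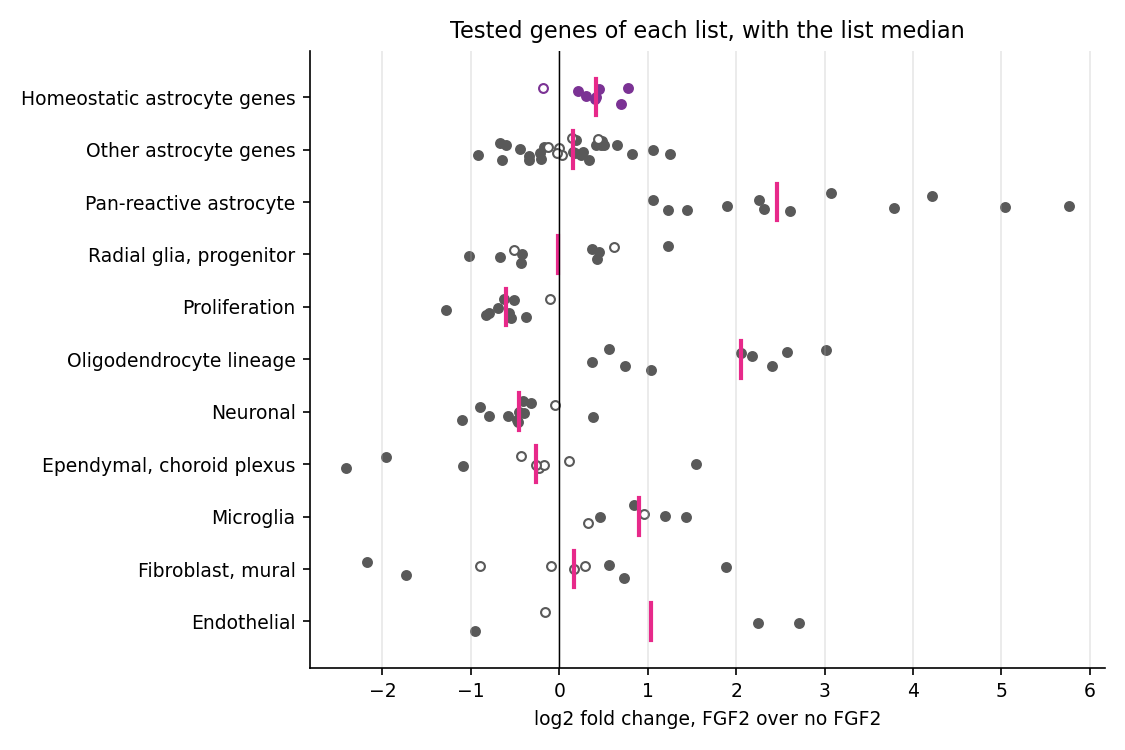
Log2 fold change with FGF2 over no FGF2 of the tested genes in each list, 1 point per gene, filled where the adjusted p-value was below 0.05, with the list median as a pink line. The members (purple) lie between -0.18 and 0.78 with a median of 0.41, the other astrocyte genes spread to both sides of 0, and the pan-reactive and oligodendrocyte lists lie to the right.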

How the data were processed

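The authors aligned reads to mm10 (HISAT2 2.1.0 in the submitters' processing notes), filtered alignments with Samtools at a mapping quality of 20, and obtained a count for each gene from HTSeq 0.11.2. The deposited values are raw counts, 1 file per library. The annotation release and strand setting are not given in the sources used here. Of 55421 gene identifiers, 55240 matched GENCODE M21, which gave names, coordinates and exon lengths. Tallies that name no gene were left out (no feature, 43.1% to 45.9% of the tallied reads; ambiguous, 1.47% to 1.77%). Counts on genes were 9166432 and 9907613 with FGF2 and 10460236 and 10799886 without.

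The groups were compared by quasi-likelihood F-tests, with edgeR 4.0.16 under R 4.3.3 (TMM factors 0.992 to 1.01, expression filter, robust fit, Benjamini-Hochberg adjustment over 17144 genes). All adjusted p-values without another name come from this test, and standard errors are the absolute log2 fold change over the square root of F. Alternatives were RLE and total count scaling, no expression filter, DESeq2 1.42.0, limma-voom (limma 3.58.1), the replicate number as a block, each library left out, an adjusted p-value threshold of 0.01, 5 in place of 0.5 added to counts in ratios, and the longest transcript as length. The fits were tested on simulated counts. Replicates of a group differed by more than sampling noise (chi-square per degree of freedom 2.28 with FGF2 and 1.76 without), so each was kept as a library. The transcripts of the 9 members were searched with BLAST 2.17.0 against all other genes. A match of 100 bases or more at 95% identity or more was found for Aldh1l1 only, in Gm15756. This is the antisense gene that overlaps the Aldh1l1 exons, and it had no counts. As the strand setting is not known, its lack of counts does not show that the Aldh1l1 counts were unaffected.

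The members and the 21 partner and marker lists were chosen with earlier results of these data known, and no list was given a test. The rule for named genes took the members, the genes of the 14 pairs, at most 2 genes per list and direction with an adjusted p-value below 0.05 and at least 1 CPM, genes of the members' families that did not pass and had at least 5 CPM, and 7 common astrocyte and progenitor genes. Not all of them are named singly, and some genes and pairs are not reported here. Outside the rule, Utrn, Dag1, Nfia, Zbtb20, Slc6a11, S100a11, S100a16, Lrrc8c, Aqp9, Gm15756 and Cldn5 were named after their values were seen.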

Additional observations from a re-analysis of the deposited data

How the results depend on the processing

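The 7 members called higher stayed 7, with 0 called lower, under every alternative run, including an adjusted p-value threshold of 0.01. No fit turned the direction or ended the call of any of the 8 tested members. Over the fits with all libraries the log2 fold change lay between 0.76 and 0.78 for Aqp4, 0.69 and 0.71 for Aldh1l1, and 0.19 and 0.21 for Gja1, whose largest adjusted p was 0.0011. The median of the tested members was between 0.38 and 0.44 with a library left out. Of 91 other genes the rule took and the fit tested, 79 kept their side under the other tools, filters and scalings. Over all genes DESeq2 called 2068 higher and 1939 lower in place of 3541 and 3408, and it gave no adjusted p-value for 11848 genes. DESeq2 was run on every gene with any count, and not only on the 17144 genes that passed the expression filter. Why it called fewer genes was not tested. With 5 added to each count the difference of the log2 ratio was 0.91 for Gja1 to Gjb6, where few counts make the added number matter, and -1.13 for Sox9 to Sox8. By the longest transcript the places in the order per kilobase were 2 for Aldoc, 3 for Mlc1, 5 for Gja1 and 6 for Sox9 in both groups, in place of 3, 2, 6 and 5.

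The deviations of same-numbered libraries had a correlation of 1.3e-05 over 17144 genes, so no effect shared by replicate number was seen. Whether same-numbered cultures shared a preparation is not stated, and this value cannot tell. With the replicate block the median log2 fold change of the members was 0.41 and 7 were called higher. Among the other named genes the replicate block changed the call of Kdr alone. Gjb6, at 1 to 6 counts, is at the limit of this depth.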

Other observations

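Volume-regulated anion channels, built from Lrrc8 subunits, work beside Mlc1 when astrocytes swell, and their subunits went both ways. Lrrc8a, the subunit every such channel needs, rose by 0.61 and Lrrc8c rose by 0.46 on the log2 scale (edgeR adjusted p = 3.4e-08 and 3.4e-11). Lrrc8d fell by 0.39 (edgeR adjusted p = 1.7e-07). It had 82.8 and 70.7 CPM with FGF2 and 99.8 and 101 CPM without.

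Of 9 genes listed for proteins that act with connexins, 4 rose and 1 fell with FGF2. Tjp1, which encodes the ZO-1 scaffold of connexin 43, rose by 0.62 and Cav1 rose by 2.19 on the log2 scale (edgeR adjusted p = 3.3e-39 and 1.3e-67). Dbn1, which encodes an actin-binding protein, fell by 0.59 (edgeR adjusted p = 2.1e-33).

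Within the S100 list, S100a8 and S100a9, best known from myeloid cells, had 29 and 40 counts and 48 and 65 counts with FGF2, against 0 and 0 counts and 2 and 0 counts without FGF2. The summed level of 10 microglia markers was 39.2 and 43.1 CPM with FGF2 and 25.3 and 25.7 CPM without, and its part in these counts was not tested.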
